A study of Homo sapiens with 24 samples.

Results

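Goblet cells are the mucus-secreting cells of the intestinal lining, and 10 genes of this cell type were followed here in SW1222 cells, an established human colorectal cancer cell line, with DPPA3 raised, knocked down or knocked out. The members were chosen by symbol: MUC2, FCGBP, CLCA1, ZG16, TFF3, SPINK4, REG4, AGR2, ATOH1 and SPDEF. All 10 were measured, on 11 probe sets, among 17448 genes tested on 20276 probe sets. ZG16 had 2 probe sets, which differed by at most 0.32 log2 on any array. The 24 expression arrays fell into 9 groups. The DPPA3-OE line overexpresses DPPA3 under doxycycline, and the control-OE line, which received the drug too, is its control. Both lines formed megacolonies embedded in Matrigel (3D) and received doxycycline at 5 µg/ml over the final 5 days, with 3 arrays per line. In 2D they received the same dose for 4 hours, again with 3 arrays per line. A DPPA3 shRNA line and a control shRNA line had 3 arrays each in 3D, with no drug named in the labels. Knockout clones 66 and 75, made by CRISPR, and a line with a scrambled gRNA had 2 arrays each in 3D, likewise with no drug named. All cells were kept at 21% oxygen. Each knockout group was 1 clone, so the loss of DPPA3 and a trait of that clone cannot be told apart. No DPPA3-OE arrays without doxycycline were analysed here, so a response to DPPA3 and a standing difference between the DPPA3-OE and control-OE lines cannot be told apart either. Nothing in the labels tells if the replicate arrays came from different cultures, so p-values cover the spread among these arrays, which may be technical.

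In the intestine, stem cells that escape Notch signalling switch on ATOH1, a basic helix-loop-helix transcription factor that commits them to the secretory fates. SPDEF, an Ets-family transcription factor, then drives maturation of goblet cells. MUC2 is the gel-forming mucin that builds the mucus layer of the colon, and FCGBP, the secreted protease CLCA1 and the lectin-like ZG16 are other components of that mucus. TFF3 is a trefoil peptide of mucosal repair, SPINK4 a Kazal-type protease inhibitor and REG4 a C-type lectin, all secreted. AGR2 is a protein disulfide isomerase of the endoplasmic reticulum that in mice is needed to make Muc2.

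The values are log2 signals, on which a difference of 1 is a 2-fold difference. Probe sets differ in brightness, so the rank of a signal among genes is only a rough guide to its RNA level. The mean signal of AGR2 over all arrays lay above that of 99.3% of the genes, TFF3 above 97.7% and SPINK4 above 63.5%. The other 7 lay between 13.3% for CLCA1 and 53.0% for FCGBP. Those 7 were all dimmer than DES, a muscle gene, which was the brightest of 13 measured genes of unrelated tissues (means from 2.14 to 4.29 log2). Of the markers that define a goblet cell, TFF3, AGR2 and SPINK4 had means over all arrays above this range of unrelated genes. MUC2, at a mean of 3.97 log2, did not. In the DPPA3-OE line in 3D, SPINK4 too lay within the range, at a mean of 3.95 log2. A difference between such dim signals can understate the difference in RNA. In a population of cells, fewer cells of a type and less RNA per cell cannot be told apart. The targeted gene DPPA3 read 3.77, 4.54 and 4.74 log2 on the DPPA3-OE arrays in 3D, against 2.99, 2.59 and 2.97 on the control-OE arrays. In 2D the log2 fold change of DPPA3 was 1.84 (adjusted p = 4.75e-04 by limma). With the shRNA (log2 fold change -0.04, adjusted p = 0.9996 by limma) and in clones 66 (-0.16, adjusted p = 0.971) and 75 (0.19, adjusted p = 0.983), no change in DPPA3 RNA was detectable on the arrays. DPPA3 averaged 2.91 log2 with the control shRNA and 2.85 with the scrambled gRNA, near the median of 2.86 of the unrelated tissue genes. A fall from there could not have been seen. Replicate arrays correlated at r = 0.987 to 0.994 across genes, which are not independent replicates.

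**Figure D1:**
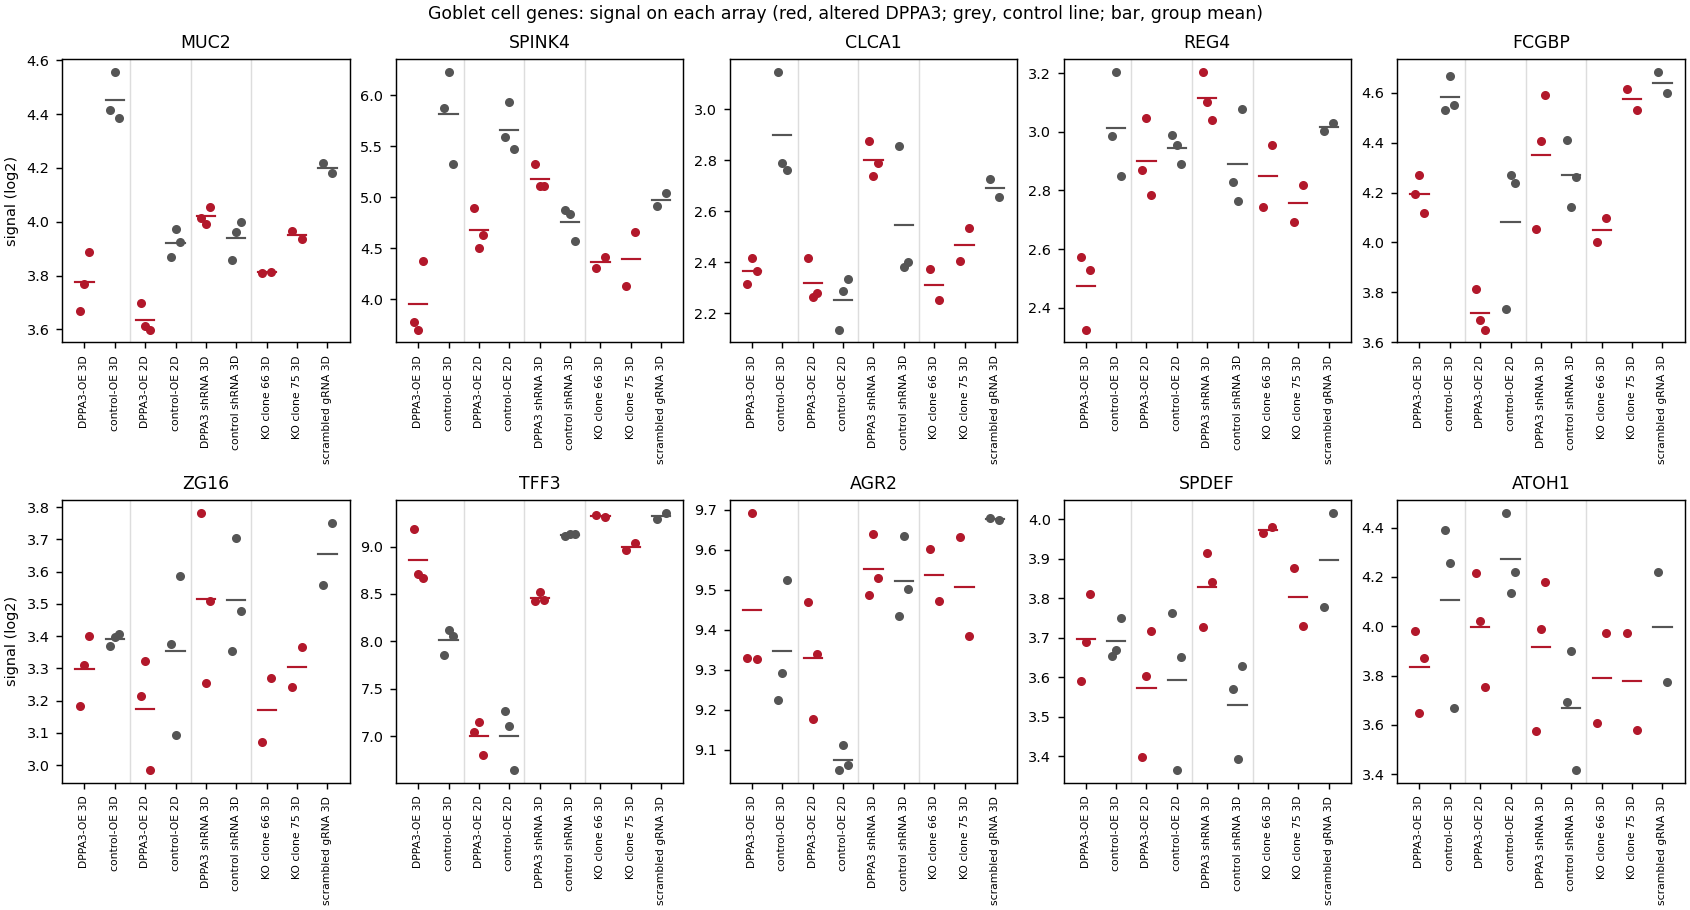
Signal of each goblet cell gene on each of the 24 arrays (vertical axis, log2 signal, with its own scale in each panel) in the 9 groups (horizontal axis). Points are arrays, horizontal bars group means, red marks cells with altered DPPA3 and grey the control lines. Single arrays of SPINK4 lie between 3.70 and 6.23 log2 and those of TFF3 between 6.64 and 9.36. The group means span 1.86 log2 for SPINK4 and 2.33 for TFF3, the widest of the 10.

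The members differed in how far they moved across the 9 groups. The range of the group means was 2.33 log2 for TFF3 and 1.86 for SPINK4, wider than for 99.7% and 99.3% of the genes. It was 0.92 for FCGBP and 0.82 for MUC2, wider than for 89.6% and 86.1%. SPDEF (0.44), ZG16 (0.48), ATOH1 (0.60), AGR2 (0.60), REG4 (0.64) and CLCA1 (0.65) moved less, at 55.7% to 76.8% of the genes.

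The order of the groups differed between members. SPINK4 was lowest in the DPPA3-OE line in 3D (mean 3.95 log2) and highest in the control-OE line in 3D (5.81) and 2D (5.66), whose arrays overlapped. Between these lay the DPPA3 shRNA (5.18), the scrambled gRNA (4.98), the control shRNA (4.76), the DPPA3-OE line in 2D (4.67), clone 75 (4.39) and clone 66 (4.36). Of the neighbours in this order, the arrays overlapped from the control shRNA down to the DPPA3-OE line in 3D and stood apart from the control-OE line in 2D down to the control shRNA. TFF3 had another order. It was highest with the scrambled gRNA (9.33) and in clone 66 (9.32), followed by the control shRNA (9.13), clone 75 (9.0), the DPPA3-OE line in 3D (8.86), the DPPA3 shRNA (8.46) and the control-OE line in 3D (8.01). It was lowest in 2D, at 7.0 in both the DPPA3-OE and control-OE lines. Neighbours in this order overlapped in 3 of 8 cases, which were the scrambled gRNA with clone 66, clone 75 with the DPPA3-OE line in 3D, and the 2D lines with each other. MUC2 was highest in the control-OE line in 3D (4.45), then with the scrambled gRNA (4.20) and the DPPA3 shRNA (4.02), which stood apart from each other. It was lowest in clone 66 (3.81) and in the DPPA3-OE line in 3D (3.77) and 2D (3.64), whose neighbours overlapped. For the transcription factors SPDEF and ATOH1, as for ZG16, all 8 pairs of neighbouring groups overlapped. For CLCA1 and FCGBP 7 of 8 pairs overlapped, and for REG4 and AGR2 6 of 8.

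With DPPA3 induced for 5 days in 3D, 4 secreted goblet products were lower than in the control-OE line and 1 was higher. SPINK4, MUC2, CLCA1 and REG4 fell and TFF3 rose, while neither transcription factor passed the test. In all, 5 of the 10 members passed at an adjusted p under 0.05 (limma, Benjamini-Hochberg over all genes), against 5.7% of the 17448 genes. The 4 lower members stand beside 2.77% of all genes lower, and the single higher member beside 2.93% higher. The median log2 fold change was -0.33 over the 10 members and -0.01 over all genes.

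SPINK4 read 3.77, 3.70 and 4.37 log2 on the DPPA3-OE arrays, against 5.88, 6.23 and 5.33 on the control-OE arrays. Every DPPA3-OE array was below every control-OE array, and the log2 difference was -1.86 (SE 0.19, adjusted p = 3.44e-07), a 3.63-fold lower signal. MUC2, the main gel-forming mucin, read 3.67, 3.77 and 3.89 in the DPPA3-OE line, against 4.41, 4.56 and 4.39 in the control-OE line. Its arrays did not overlap either, and the log2 difference was -0.68 (SE 0.09, adjusted p = 1.07e-05). CLCA1, which processes the mucus gel, read 2.32, 2.42 and 2.37 in the DPPA3-OE line, against 3.15, 2.79 and 2.76 in the control-OE line. Its log2 fold change of -0.53 (SE 0.12, adjusted p = 0.00564) leaned on control-OE replicate 1, the highest array, without which it was -0.41 (adjusted p = 0.0591). REG4 read 2.57, 2.32 and 2.53 in the DPPA3-OE line, against 2.99, 3.20 and 2.85 in the control-OE line. The groups did not overlap and the log2 difference was -0.54 (SE 0.11, adjusted p = 0.00270). CLCA1 and REG4 averaged 2.37 and 2.47 in the DPPA3-OE line, against 2.90 and 3.01 in the control-OE line, near the median of 2.86 log2 of the 13 unrelated tissue genes, so neither was shown to lie above background in either line. TFF3 went the other way, with 9.18, 8.71 and 8.67 in the DPPA3-OE line, against 7.86, 8.12 and 8.05 in the control-OE line. All 3 DPPA3-OE arrays were above the 3 control-OE arrays, by 0.85 log2 (SE 0.14, adjusted p = 2.00e-04).

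The remaining 5 members did not pass in 3D. FCGBP, a mucus protein with repeated von Willebrand domains, had arrays that did not overlap, with 4.19, 4.27 and 4.12 in the DPPA3-OE line, against 4.53, 4.67 and 4.55 in the control-OE line, and differed by -0.39 log2 (adjusted p = 0.0860). The other 4 had overlapping arrays. The log2 fold change of ATOH1 was -0.27 (95% confidence interval -0.65 to 0.11) and that of SPDEF 0.01 (-0.23 to 0.24). It was -0.09 (-0.37 to 0.18) for ZG16 and 0.10 (-0.13 to 0.33) for AGR2. Arrays of 6 of the 10 members stood apart between the groups, against 18.3% of all genes.

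**Figure D2:**
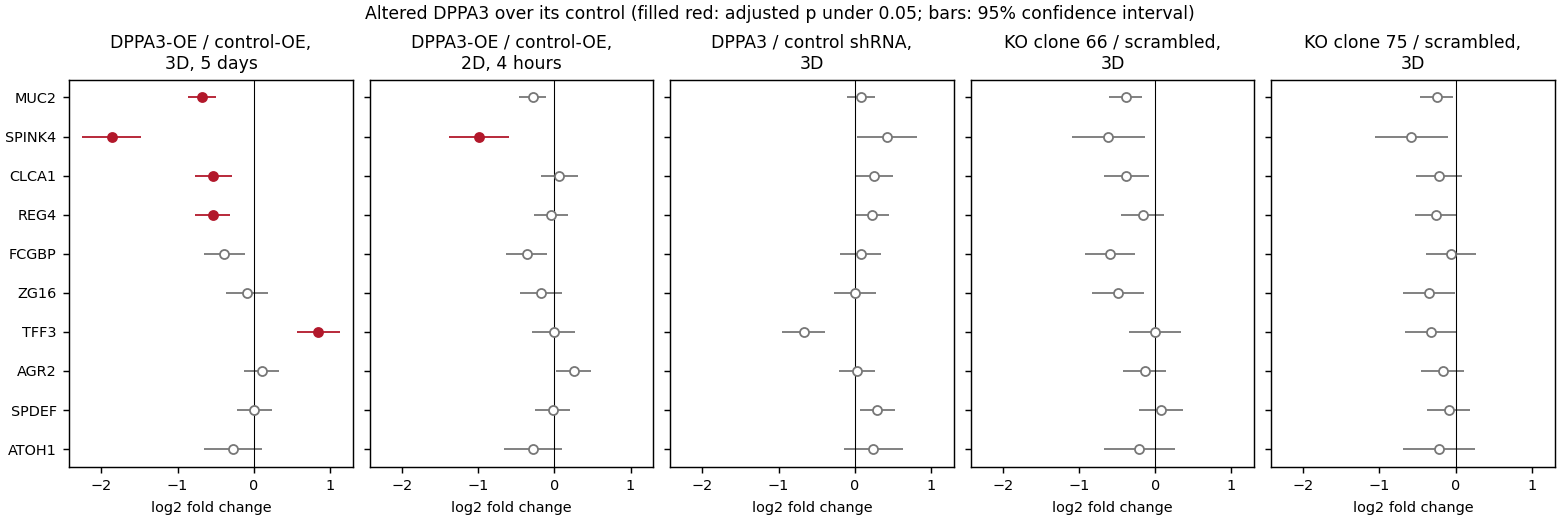
Log2 fold change (horizontal axis) of each goblet cell gene in cells with altered DPPA3 over their control, in 5 comparisons, with 95% confidence intervals as bars. Filled red points passed at an adjusted p under 0.05. SPINK4, MUC2, CLCA1 and REG4 lie below 0 and TFF3 above 0 for induction in 3D, and SPINK4 alone passed in 2D.

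The start regions of the 4 members that fell are shown because their letters were not used to choose them. The motifs were picked after the members' values were seen. RefSeq entries of 300 bases (GRCh38.p14, 250 bases before the start to 50 after it) were matched for 8 of the 10 members, all except ZG16 and TFF3. Capitals mark letters found by search on both strands: the GATA motif AGATAA, the CDX motif TTTATNG of intestinal homeobox factors, the E-box forms CAGCTG and CAGATG bound by basic helix-loop-helix factors such as ATOH1, the hypoxia response element core ACGTG, and the TATA box TATAAA. SPINK4 is at chr9:33239917-33240216 on the plus strand, MUC2 at chr11:1074624-1074923 on the plus strand, CLCA1 at chr1:86468677-86468976 on the plus strand and REG4 at chr1:119811411-119811710 on the minus strand, each printed in the direction of the gene.
SPINK4: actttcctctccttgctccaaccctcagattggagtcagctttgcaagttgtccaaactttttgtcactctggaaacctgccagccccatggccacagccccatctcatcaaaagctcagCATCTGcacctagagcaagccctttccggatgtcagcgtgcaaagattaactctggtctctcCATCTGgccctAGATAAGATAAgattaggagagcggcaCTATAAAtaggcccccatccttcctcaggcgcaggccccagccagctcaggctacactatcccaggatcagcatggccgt
MUC2: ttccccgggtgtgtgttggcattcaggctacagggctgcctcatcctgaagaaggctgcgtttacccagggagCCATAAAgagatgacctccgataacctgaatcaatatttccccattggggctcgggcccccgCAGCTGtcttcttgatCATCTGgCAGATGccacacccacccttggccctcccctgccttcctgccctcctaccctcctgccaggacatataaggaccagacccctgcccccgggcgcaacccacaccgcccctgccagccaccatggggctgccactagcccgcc
CLCA1: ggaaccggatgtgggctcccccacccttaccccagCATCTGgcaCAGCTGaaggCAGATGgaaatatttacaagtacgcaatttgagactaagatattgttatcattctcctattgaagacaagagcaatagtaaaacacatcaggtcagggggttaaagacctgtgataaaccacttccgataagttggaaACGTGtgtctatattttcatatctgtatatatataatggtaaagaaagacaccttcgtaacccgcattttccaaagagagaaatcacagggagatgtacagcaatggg
REG4: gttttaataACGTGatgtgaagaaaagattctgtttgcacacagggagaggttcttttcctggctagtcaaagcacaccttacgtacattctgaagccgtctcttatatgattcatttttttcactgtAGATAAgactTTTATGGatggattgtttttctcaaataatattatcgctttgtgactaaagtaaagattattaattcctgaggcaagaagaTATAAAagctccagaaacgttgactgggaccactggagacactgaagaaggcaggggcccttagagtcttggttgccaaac
SPINK4 held 2 copies of AGATAA that overlap by a base, between 57 and 47 bases before the start, and a CDX match that overlaps a TATA box 24 to 30 bases before it. CAGATG lay in SPINK4, MUC2 and CLCA1, with 2 copies in each, and CAGCTG in MUC2 and CLCA1. In MUC2 and CLCA1 all 3 E-box matches lay within a short stretch, 115 to 87 and 215 to 191 bases before the start. REG4 held no E-box of either form in this window, but a match each to the GATA, CDX, TATA box and hypoxia motifs. Among 35116 such regions, the CAGATG form was found in 14.7% and the CAGCTG form in 17.9%. The GATA motif was found in 10.3% of them, the CDX motif in 9.73%, the TATA box in 11.5% and the hypoxia core in 21.4%. Each of these was found in 3 of the 8 members, except the TATA box, in 2. Some matches lay in members that did not pass in 3D. AGR2 held the GATA motif and the CAGCTG form, and SPDEF held the hypoxia core. These matches describe the letters of the window and say nothing on whether a factor binds there.

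Genes beside the members on the chromosome were read as a description, chosen after the members' values were seen. For each member, the 10 nearest genes on either side with a mean signal above the median of all genes were taken in RefSeq order. For induction in 3D their median log2 fold change was -0.09 around SPINK4, 0.11 around MUC2, 0.10 around CLCA1 and -0.10 around TFF3. Around REG4 it was -0.15, with 4 of the 20 neighbours lower and 1 higher. Of 20 neighbours each, 3 were higher and 0 lower around MUC2, and 1 higher and 0 lower around CLCA1. Around TFF3 1 was higher and 1 lower, and around SPINK4 0 passed. Of all genes 2.93% were higher and 2.77% lower.

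Other cell type markers moved in the same comparison, and their part in the result was not tested. Proliferation markers averaged 6.70 to 6.98 log2 on the DPPA3-OE arrays, against 7.08 to 7.21 on the control-OE arrays, with 3 of 6 lower. Stem cell markers averaged 7.01 to 7.16 in the DPPA3-OE line, against 6.43 to 6.65 in the control-OE line, with 2 of 6 higher and 1 lower. Absorptive enterocyte markers averaged 4.39 to 4.66 in the DPPA3-OE line, against 4.12 to 4.32 in the control-OE line, with 2 of 11 higher. Enteroendocrine markers averaged 2.78 to 2.82 in the DPPA3-OE line, against 2.78 to 2.88 in the control-OE line, and 0 of 10 passed by limma at the adjusted or the unadjusted threshold. Enteroendocrine cells are another secretory fate that depends on ATOH1. Of the 5 Paneth and 5 tuft cell markers measured, 0 passed by limma at either threshold. Paneth markers averaged 2.53 to 2.63 log2 in the DPPA3-OE line, against 2.58 to 2.61 in the control-OE line. The unrelated tissue genes averaged more, at 3.04 to 3.15 in the DPPA3-OE line and 3.10 to 3.15 in the control-OE line. A fall of the enteroendocrine or Paneth markers could thus go unseen.

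Further genes of goblet cell function were read from lists. Among 12 other secreted products, TFF1 and SERPINA1, a protease inhibitor, rose with induction in 3D and none fell. TFF1, a trefoil peptide encoded in one cluster with TFF3 on chromosome 21, read 7.46, 7.34 and 7.30 log2 in the DPPA3-OE line, against 5.99, 6.26 and 6.50 in the control-OE line. Its log2 fold change was 1.12 (adjusted p = 1.23e-06), and that of SERPINA1 0.56 (adjusted p = 0.0433). TFF2, the remaining trefoil gene of that cluster, differed by 0.07 log2 (adjusted p = 0.913). Of 13 secretory lineage transcription factors, XBP1, which expands the secretory apparatus, rose by 0.44 (adjusted p = 0.00489) and FOXA1 by 0.35 (adjusted p = 0.0393). Of 15 Notch pathway genes, 0 passed by limma, with 2 at an unadjusted p under 0.05. Of 23 genes of mucin glycosylation and granules, GALNT12, which starts O-glycan chains, rose by 0.41 (adjusted p = 0.0190). The sialyltransferase ST6GALNAC1 fell by 0.43 (adjusted p = 0.0292) and the sulfotransferase CHST5 fell by 0.49 (adjusted p = 0.00795). CHST5 averaged 2.96 log2 in the DPPA3-OE line and 3.45 in the control-OE line. Both lie within the range of the unrelated tissue genes (2.14 to 4.29), so CHST5 was not shown to lie above background. Of 10 membrane mucins, MUC20 rose by 0.70 (adjusted p = 5.08e-04).

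**Figure D3:**
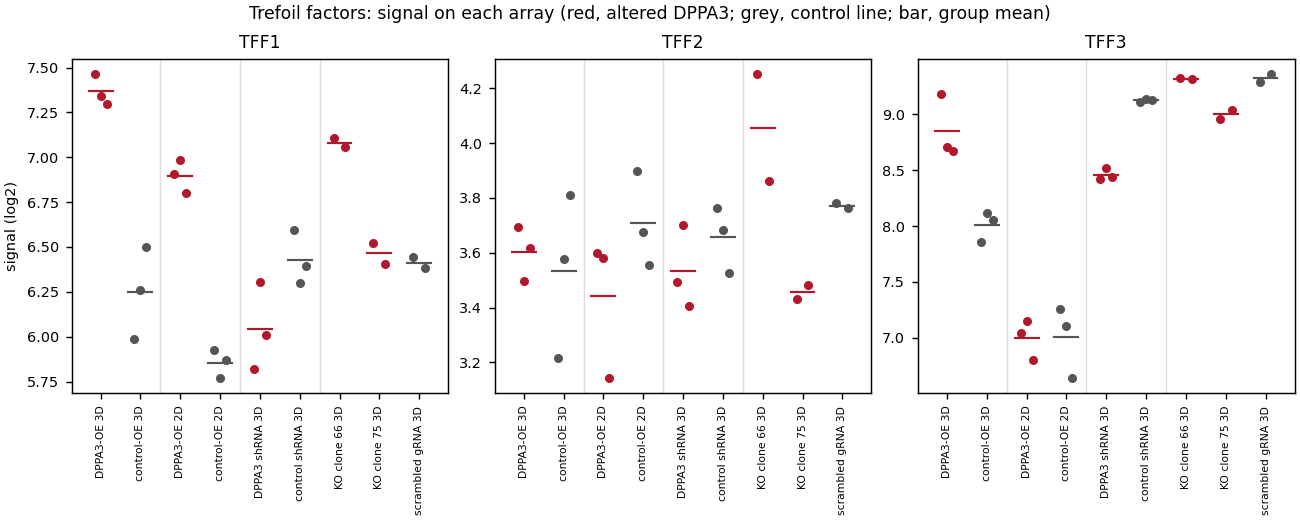
Signal of the trefoil factor genes TFF1, TFF2 and TFF3 on each array (vertical axis, log2 signal, own scale per panel) in the 9 groups (horizontal axis), with bars at group means. TFF1 and TFF3 are higher in the DPPA3-OE line in 3D, at means of 7.37 and 8.86 log2, against 6.25 and 8.01 in the control-OE line, while TFF1 alone is higher in the DPPA3-OE line in 2D.

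After 4 hours of induction in 2D, SPINK4 was the single member that passed, 1 of 10 against 3.13% of all genes. It read 4.89, 4.50 and 4.63 log2 in the DPPA3-OE line, against 5.59, 5.93 and 5.47 in the control-OE line. The arrays did not overlap, and the log2 difference was -0.99 (SE 0.19, adjusted p = 0.00204). MUC2 read 3.70, 3.61 and 3.60 in the DPPA3-OE line, against 3.87, 3.97 and 3.92 in the control-OE line. These arrays stood apart too, with a log2 fold change of -0.29 that did not pass (adjusted p = 0.0760). TFF3 read 7.04, 7.14 and 6.80 in the DPPA3-OE line, against 7.26, 7.11 and 6.64 in the control-OE line. Its arrays overlapped and the log2 fold change was -0.01, with a 95% confidence interval of -0.29 to 0.27. FCGBP differed by -0.36 log2 (adjusted p = 0.159), and without control-OE replicate 1, its lowest control array, one of -0.53 (adjusted p = 0.0174). REG4 (-0.04) and CLCA1 (0.07) had intervals of -0.27 to 0.18 and -0.18 to 0.31. The log2 fold change was -0.28 for ATOH1, -0.18 for ZG16, -0.02 for SPDEF and 0.25 for AGR2, none of which passed. Stem cell markers averaged 7.45 to 7.54 log2 in the DPPA3-OE line, against 6.34 to 6.42 in the control-OE line. Of these, OLFM4 (3.81), SMOC2 (1.77) and LGR5 (1.02) rose, 3 of 6, and their part in the goblet cell values was not tested. Absorptive enterocyte markers averaged 4.03 to 4.17 in the DPPA3-OE line, against 4.09 to 4.14 in the control-OE line, with 1 of 11 lower. TFF1 was higher by 1.04 (adjusted p = 5.85e-06), and the membrane mucins MUC12 (0.98), MUC20 (0.80) and MUC13 (0.36) rose, 3 of 10. HES1, a transcriptional repressor switched on by Notch that in mice restrains Atoh1, fell by 0.51 (adjusted p = 0.0415) as the only one of 15 Notch pathway genes to pass.

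The effect of induction in 3D was then set against that in 2D by testing the difference itself, where the culture format and the length of treatment varied jointly. By limma 0 of 10 members passed, against 0.241% of all genes, and 5 of 10 had an unadjusted p under 0.05, against 8.98% of all genes. TFF3 came nearest, with an effect in 3D larger than in 2D by 0.85 log2 (95% confidence interval 0.45 to 1.25, adjusted p = 0.0604). It passed in 5 of 18 other settings, among them without DPPA3-OE replicate 2 in 3D (adjusted p = 0.0415) and without control-OE replicate 3 in 2D (adjusted p = 0.0114). The difference was -0.87 for SPINK4 (-1.42 to -0.32, adjusted p = 0.230) and -0.60 for CLCA1 (-0.95 to -0.26, adjusted p = 0.171). For REG4 it was -0.50 (-0.82 to -0.17, adjusted p = 0.258) and for MUC2 -0.39 (-0.65 to -0.14, adjusted p = 0.249). The other 5 were AGR2 (-0.15), FCGBP (-0.03), ATOH1 (0.01), SPDEF (0.02) and ZG16 (0.09). A change confined to 3D was thus not shown for any member.

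Growth in 3D with 5 days of drug was also compared with 2D and 4 hours within each line. Each of these comparisons shares its arrays with an induction comparison above. In the control-OE line MUC2, CLCA1, FCGBP and TFF3 were higher in 3D, 4 of 10 members against 4.92% of all genes higher. In the DPPA3-OE line TFF3 and FCGBP were higher in 3D, against 7.55% of all genes, and SPINK4 and REG4 were lower, against 7.35%. CLCA1 averaged 2.90 log2 in 3D and 2.25 in 2D in the control-OE line, and REG4 2.47 and 2.90 in the DPPA3-OE line. With a median of 2.86 for the unrelated tissue genes, neither was shown to lie above background. In the DPPA3-OE line all 6 proliferation markers were lower in 3D too, at 6.70 to 6.98 log2 on average in 3D, against 7.35 to 7.55 in 2D. Its stem cell markers averaged 7.01 to 7.16 in 3D, against 7.45 to 7.54 in 2D, with 3 of 6 lower and 1 higher. In the control-OE line 1 of 6 proliferation markers passed as lower in 3D, and 2 of 6 stem cell markers were higher and 1 lower. The median log2 fold change of the proliferation markers was -0.73 in the DPPA3-OE line and -0.31 in the control-OE line. Over all genes it was -0.03 and -0.02. For the difference of induction effects 0 of 6 proliferation markers passed by limma, against 0.241% of all genes. At an unadjusted p under 0.05 there were 4 of 6, against 8.98% of all genes. The part of these markers in the goblet cell values was not tested. The log2 fold change of TFF3 between 3D and 2D was 1.86 in the DPPA3-OE line (adjusted p = 1.04e-09) and 1.01 in the control-OE line (adjusted p = 3.91e-05). For FCGBP it was 0.48 in the DPPA3-OE line (adjusted p = 0.0128) and 0.50 in the control-OE line (adjusted p = 0.0170). The FCGBP call was lost in the DPPA3-OE line without 2D replicate 3 (adjusted p = 0.0532), and in the control-OE line without 3D replicate 2 (adjusted p = 0.0706) or 2D replicate 1 (adjusted p = 0.132), and there also when only the arrays compared were fitted (adjusted p = 0.0864).

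MUC2 differed by 0.14 log2 between 3D and 2D in the DPPA3-OE line (adjusted p = 0.340) and of 0.53 in the control-OE line (adjusted p = 3.60e-04). CLCA1 had 0.05 in the DPPA3-OE line (adjusted p = 0.866) and 0.65 in the control-OE line (adjusted p = 0.00107). SPINK4 had -0.72 in the DPPA3-OE line (adjusted p = 0.00909) and 0.15 in the control-OE line (adjusted p = 0.706). Its call was lost without DPPA3-OE replicates 1 or 2 in 3D or replicate 1 in 2D (adjusted p up to 0.0566). REG4 had -0.43 in the DPPA3-OE line (adjusted p = 0.00870) and 0.07 in the control-OE line (adjusted p = 0.775), and lost its call without DPPA3-OE replicate 2 in 3D or in 2D (adjusted p up to 0.0588). The other 4 members did not pass in either line. In the DPPA3-OE line the values were 0.12 for AGR2, 0.12 for SPDEF, 0.12 for ZG16 and -0.16 for ATOH1. In the control-OE line they were 0.27 for AGR2, 0.10 for SPDEF, 0.04 for ZG16 and -0.17 for ATOH1. Whether the lines differ in these values is the difference of induction effects given above, which no member passed. ERN2, a sensor of unfolded protein found in mucus-secreting epithelia, was higher in 3D by 1.06 in the DPPA3-OE line (adjusted p = 6.55e-05) and by 0.77 in the control-OE line (adjusted p = 0.00411). It was 1 of 2 genes of glycosylation and granules that were higher in the DPPA3-OE line, with FUT3 (0.75), while 4 of the 23 were lower, among them ST3GAL4 (-0.47) and ST6GALNAC1 (-0.43). In the control-OE line ERN2 was the single one of the 23 to pass. XBP1, the transcription factor that such sensors activate by splicing, was higher by 0.57 in the DPPA3-OE line (adjusted p = 1.36e-04) and by 0.43 in the control-OE line (adjusted p = 0.00624).

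**Figure D4:**
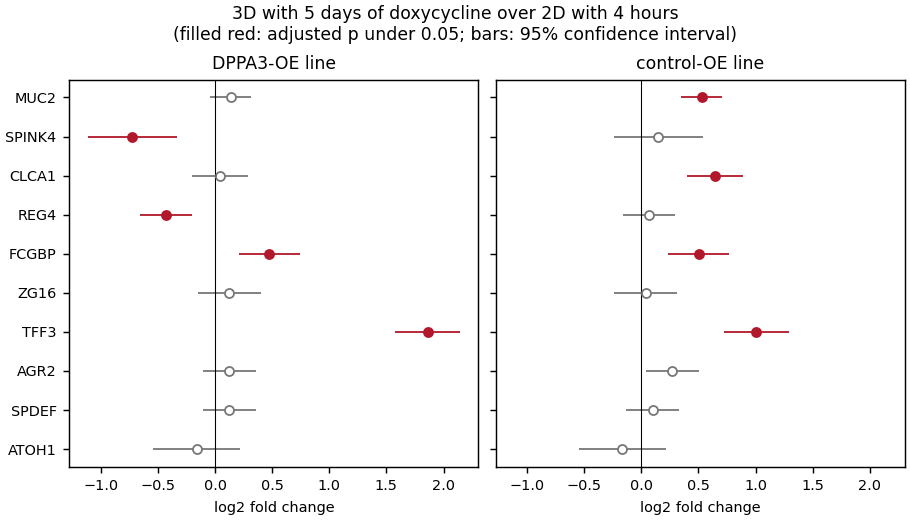
Log2 fold change (horizontal axis) of each goblet cell gene in 3D with 5 days of doxycycline over 2D with 4 hours, in the DPPA3-OE line (left) and the control-OE line (right), with 95% confidence intervals. Filled red points passed at an adjusted p under 0.05. TFF3 lies at 1.86 in the DPPA3-OE line and 1.01 in the control-OE line, and SPINK4 at -0.72 in the DPPA3-OE line and 0.15 in the control-OE line.

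With the DPPA3 shRNA, 0 of 10 members passed by limma, against 0.086% of all genes, while 4 of 10 had an unadjusted p under 0.05, against 5.26% of all genes. TFF3 came nearest. It read 8.43, 8.52 and 8.44 log2 with the DPPA3 shRNA, against 9.11, 9.14 and 9.13 with the control shRNA. The arrays stood far apart, with a log2 fold change of -0.67 (SE 0.14, 95% confidence interval -0.95 to -0.38, adjusted p = 0.0534). It passed in 4 of 12 other settings. Its adjusted p was 0.0204 when only these 6 arrays were fitted and 0.0110 with a variance that follows the signal, fitted robustly. SPINK4 read 5.32, 5.10 and 5.11 with the DPPA3 shRNA, against 4.87, 4.83 and 4.57 with the control shRNA. These arrays did not overlap, and the log2 fold change of 0.42 (0.03 to 0.81) did not pass (adjusted p = 0.885). SPDEF had 0.30 (adjusted p = 0.750), CLCA1 0.26 (adjusted p = 0.906), ATOH1 0.24 and REG4 0.23. MUC2, FCGBP, AGR2 and ZG16 lay between 0.00 and 0.08. Arrays of 3 of the 10 members stood apart, against 10.8% of all genes. GCNT3, which branches mucin O-glycans, rose by 0.73 (adjusted p = 0.00956) as 1 of 23 genes of glycosylation and granules. By limma 0 passed of the 12 other secreted products (1 at an unadjusted p under 0.05), 13 lineage factors (0), 15 Notch pathway genes (1) and 10 membrane mucins (2).

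In the knockout clones 0 of 10 members passed by limma, against 1.43% of all genes in clone 66 and 0.619% in clone 75. At an unadjusted p under 0.05 there were 5 of 10 in clone 66, against 9.55% of all genes, and 3 of 10 in clone 75, against 8.12%. Both clones were set against the same 2 scrambled gRNA arrays, so their values are not independent. MUC2 read 3.81 and 3.81 log2 in clone 66 and 3.97 and 3.94 in clone 75, against 4.22 and 4.18 with the scrambled gRNA. Both clones lay below the scrambled gRNA arrays, with log2 fold changes of -0.39 in clone 66 (adjusted p = 0.0688) and -0.25 in clone 75 (adjusted p = 0.515). SPINK4 read 4.31 and 4.41 in clone 66 and 4.13 and 4.66 in clone 75, against 4.91 and 5.04 with the scrambled gRNA. Its arrays were again lower in both clones, with log2 fold changes of -0.61 in clone 66 (95% confidence interval -1.09 to -0.14, adjusted p = 0.292) and -0.58 in clone 75 (-1.06 to -0.11, adjusted p = 0.441). FCGBP read 4.00 and 4.10 in clone 66 and 4.62 and 4.53 in clone 75, against 4.68 and 4.60 with the scrambled gRNA. Clone 66 was lower (-0.59, adjusted p = 0.0638) without passing, and clone 75 overlapped its control (-0.07, adjusted p = 0.988).

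When only the arrays of clone 66 and the scrambled gRNA were fitted, SPINK4 (adjusted p = 0.0371) and FCGBP (adjusted p = 0.0396) passed. In clone 75, 0 members passed in any of 10 other settings. TFF3 had a log2 fold change of -0.01 in clone 66 (-0.35 to 0.34) and -0.33 in clone 75 (-0.67 to 0.02). ZG16 had -0.48 in clone 66 (adjusted p = 0.204) and -0.35 in clone 75 (adjusted p = 0.584), with arrays apart from the scrambled gRNA in both. CLCA1 had -0.38 in clone 66 (adjusted p = 0.310) and -0.22 in clone 75 (adjusted p = 0.801). REG4 had -0.17 in clone 66 and -0.26 in clone 75, and AGR2 -0.14 in clone 66 and -0.17 in clone 75. The transcription factors stood at -0.21 in clone 66 and -0.22 in clone 75 for ATOH1, and at 0.08 in clone 66 and -0.09 in clone 75 for SPDEF. The log2 fold change was below 0 for 9 of 10 members in clone 66 and for 10 in clone 75, against 52.2% and 50.4% of all genes. Arrays of 7 members stood apart from the scrambled gRNA in each clone, against 42.9% of all genes in clone 66 and 40.5% in clone 75. Between the clones 0 of 10 members passed by limma, against 2.9% of all genes, and 1 of 10 had an unadjusted p under 0.05, against 10.1% of all genes. That member was FCGBP, lower in clone 66 than in clone 75 by a log2 difference of -0.52 (-0.85 to -0.19, adjusted p = 0.0867). The other log2 differences between the clones were 0.32 for TFF3, 0.17 for SPDEF, 0.09 for REG4, 0.03 for AGR2, 0.01 for ATOH1, -0.03 for SPINK4, -0.13 for ZG16, -0.14 for MUC2 and -0.16 for CLCA1.

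Of the further genes, TFF1 (0.67, adjusted p = 0.0173), ST6GALNAC1 (0.70, adjusted p = 0.00797) and GALNT5, another enzyme that starts O-glycans (0.70, adjusted p = 0.00626), rose in clone 66. MUC12 (1.14, adjusted p = 0.00228) and GCNT3 (0.81, adjusted p = 0.00588) rose in clone 75. Absorptive enterocyte markers averaged 5.22 to 5.36 log2 in clone 66 and 4.71 to 4.88 in clone 75, against 4.90 to 5.00 with the scrambled gRNA. In clone 66, 4 of 11 of them rose and 1 fell, and in clone 75, 0 passed by limma, with 3 at an unadjusted p under 0.05. Stem cell markers averaged 5.69 to 5.83 log2 in clone 66 and 6.06 to 6.09 in clone 75, against 6.10 to 6.19 with the scrambled gRNA. In clone 66 LGR5 (-1.16, adjusted p = 2.07e-05) and SMOC2 (-1.26, adjusted p = 4.71e-04) fell and AXIN2 (0.49, adjusted p = 0.0462) rose, while in clone 75, 0 of 6 passed by limma at either threshold. The part of these markers in the goblet cell values was not tested.

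Over the 9 group means, some members followed each other more closely than others. As a description over groups that share lines and experiments, Pearson's r was 0.87 for TFF3 with AGR2, 0.84 for MUC2 with CLCA1, 0.82 for MUC2 with FCGBP and 0.77 for SPINK4 with REG4. It was -0.75 for TFF3 with ATOH1 and -0.51 for TFF3 with SPINK4. Among 9526 genes whose highest group mean lay above the all-gene median, those most like SPINK4 were CDK5RAP2 (0.94), REXO5 (0.94) and DHX34 (0.92). Those most like TFF3 were TMEM59 (0.99), DENND4C (0.99) and BICDL2 (0.98), and those most like MUC2 were SNORD82 (0.94), OCIAD1 (0.91) and THADA (0.87). For REG4 they were PLA2G2A (0.94), a secreted phospholipase, DCUN1D4 (0.91) and C7orf25 (0.91). For CLCA1 they were CEP192 (0.93), CEP295 (0.92) and ACYP1 (0.91), and for FCGBP FRA10AC1 (0.92), SESN3 (0.91) and RPL10 (0.90). For AGR2 they were LCE1E (0.99), ANKRD49 (0.98) and RUFY2 (0.97), and for ZG16 ZBTB12 (0.96), ZNF711 (0.95) and SPRN (0.94). For SPDEF they were CRYBG3 (0.96), RNF103 (0.95) and QPCTL (0.92), and for ATOH1 PSIP1 (0.94), PTP4A2 (0.91) and GSC (0.91). Taking the 3 highest of 9526 values over only 9 group means gives a high r by itself. For SPDEF, ATOH1 and ZG16 the arrays of all neighbouring groups overlapped besides. A link between a member and these genes was not tested.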

How the data were processed

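RNA of SW1222 cells was extracted with Trizol and hybridised to Affymetrix arrays as biotinylated cRNA, per the labels' protocols. The authors deposited log2 signals, for which the submitters' processing notes name Partek 6.6 and RMA. RMA corrects background and equalises the distribution of the arrays, so a change shared by most genes would not be seen. No genome build was named in the sources at hand. Values ran from 1.56 to 12.5 and array medians from 4.01 to 4.12. The number of arrays limits the precision, with a median SE of 0.12 log2 for 3 arrays against 3 and 0.15 for 2 against 2.

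Of 20276 probe sets, 18062 had 1 gene symbol in the platform annotation, 1288 had several and 926 had none, and the last 2 kinds were left out. Symbols were updated through the NCBI gene ID. The brightest probe set by mean stood for each of 17448 genes and was tested with limma 3.58.1 in R 4.3.3, in one model over 9 groups with 15 residual degrees of freedom, 2-sided. The method was tested on simulated data. The threshold was an adjusted p (Benjamini-Hochberg across the whole table) under 0.05. The alternatives were the mean of probe sets, only genes with a highest group mean above the median, only the arrays compared and arrays centred on their medians. Others were a variance following the signal and fitted robustly (both changed together), a replicate block and leaving out each array. Promoter sequences were taken from RefSeq. The members, 12 further lists (129 of 143 genes measured) and comparisons were chosen with earlier results of these data known. All 10 members were named whatever their values, other listed genes only where they passed (at most the 4 of smallest p per list and comparison). TFF2 was added to these after its values were seen.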

Additional observations from a re-analysis of the deposited data

Results flagged for a closer look

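None of the 10 goblet cell genes was marked for a closer look. By the test of the difference between the knockout clones (limma, adjusted over all genes), 6 further genes of goblet cell function differed. They were 2 of 12 other secreted products, 2 of 23 genes of glycosylation and granules and 2 of 10 membrane mucins. Of 13 lineage factors and 15 Notch pathway genes 0 passed. Of all genes 2.9% passed. Values are log2 differences, clone 66 minus clone 75, on 2 arrays per clone. GCNT3 differed by -1.03 (adjusted p = 1.09e-04), with means of 6.48 in clone 66 and 7.52 in clone 75, against 6.71 with the scrambled gRNA. GALNT5 differed by 1.04 (adjusted p = 2.85e-05), with means of 5.11 in clone 66 and 4.07 in clone 75, against 4.41 with the scrambled gRNA. MUC12 differed by -0.87 (adjusted p = 0.0105) and MUC3A by -0.73 (adjusted p = 7.41e-04). SERPINA1 differed by 0.87 (adjusted p = 0.0125) and TFF1 by 0.62 (adjusted p = 0.0197). Clone and knockout cannot be told apart in these values.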

How the results depend on the processing

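Over 90 member values (10 genes in 9 comparisons) and 1044 alternative values, 1019 kept their side of the threshold, 10 lost and 15 gained a call, and no called value turned its sign. Another 55 values that were not called turned sign and were counted among the unchanged. With only the 9526 genes whose highest group mean exceeded the median, 3 members passed for induction in 3D, among 1058 genes passing. CLCA1 and REG4 were left out by that filter. With it 1 member passed with the shRNA (22 genes passing) and 2 in clone 66 (MUC2 and FCGBP, 279 genes passing). For the difference of induction effects 1 member passed (51 genes passing). MUC2 met that filter through the groups where it is high, such as the control-OE line in 3D and the scrambled gRNA, so its calls there support nothing. With only the arrays compared, 1 member passed with the shRNA (12 of 17448 genes passing) and 2 in clone 66 (252 genes passing). Between the clones 1 passed (FCGBP, adjusted p = 0.0486, 468 genes passing). In this setting FCGBP lost its call for 3D over 2D in the control-OE line (adjusted p = 0.0864). Centring each array on its median, and a variance following the signal and fitted robustly, each gave 1 member (TFF3) with the shRNA, among 17 and 18 genes passing. Each also gave 1 for the difference of effects, among 44 and 47 genes passing. When each array was left out in turn, CLCA1 alone lost its call for induction in 3D, without control-OE replicate 1. In 2D FCGBP gained a call without control-OE replicate 1, where 2 members passed, among 399 genes passing. For the difference of effects, leaving out an array gave 0 to 1, with 1 among 70 and among 46 genes passing. For 3D over 2D in the control-OE line, FCGBP alone lost its call, without 3D replicate 2 or 2D replicate 1. In the DPPA3-OE line SPINK4, REG4 and FCGBP lost calls without the arrays named above. There 2 members passed without 3D replicate 2, among 2362 genes passing. Leaving out arrays gave 0 with the shRNA and in both clones throughout. The causes were not tested. With the replicate number as a block, the count of members passing was 5 for induction in 3D, 1 in 2D and 4 in each line for 3D over 2D, as without it. With the block 903 genes passed for induction in 3D (995 without it) and 512 in 2D (546 without it). For 3D over 2D, 2530 passed in the DPPA3-OE line (2599 without it) and 1255 in the control-OE line (1361 without it). Arrays of the same replicate number had correlations of deviations between -0.21 and 0.17. Arrays of different numbers were not compared, so a pairing was neither shown nor excluded. Dim signals limit MUC2, FCGBP, CLCA1, REG4, ZG16, ATOH1 and SPDEF, and SPINK4 in the DPPA3-OE line in 3D. The 2 or 3 arrays per group limit all values.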
